A study of Mus musculus with 6 samples.

Results

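The lysosome genes described here are the cathepsins, the lysosome-associated membrane proteins LAMP1 and LAMP2, and the subunits of the vacuolar proton pump (V-ATPase) in activated cardiac fibroblasts of pressure-overloaded mouse hearts. They were picked by a rule on gene symbols: *Cts* and 1 letter, *Lamp1* or *Lamp2*, *Atp6v0* or *Atp6v1* and any ending, and *Atp6ap1* or *Atp6ap2*, without pseudogenes. The rule uses no expression values, but this group of genes was chosen with earlier results of these data known. The rule gave 44 of the 28987 genes in the table, made up of 18 cathepsins, 2 LAMPs and 24 V-ATPase genes. Genes whose linear values averaged under 1 over the 6 libraries were not tested, which left 36 of the 44. The other 8 were *Ctse*, *Ctsg*, *Ctsj*, *Ctsm*, *Ctsr*, *Atp6v1b1*, *Atp6v1e2* and *Atp6v1g3*, and *Ctsj*, *Ctsm* and *Ctsr*, which belong to a rodent placental cluster, were listed at 0 in every library.

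RNA-seq was carried out on EGFP+ interstitial cells sorted from the ventricles 4 weeks after pressure overload was imposed by transverse aortic constriction (TAC). All 6 libraries came from mice that carried a MerCreMer cDNA knocked into the *Postn* locus and the Cre-dependent R26eGFP reporter. All received TAC at 8 to 10 weeks of age and tamoxifen, given in the labels as injections of 100 mg/kg with chow of 40 mg/kg. The methods of the paper state other doses for both the injections and the chow. The labels give no further allele for the 3 control libraries, whereas the 3 Hsp47-deleted libraries also carried Hsp47flox/flox, with LoxP sites in the gene of a collagen chaperone. Cre is driven by *Postn*, so recombination and EGFP are limited to cells that switched on periostin. The labels do not say that each library is a separate animal, so p-values measure the spread between these libraries. Control replicates 3 and 4 are labelled with a first sequencing run, whereas control replicate 2 and all 3 Hsp47-deleted replicates are labelled with a second.

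Lysosomes digest material delivered by endocytosis and autophagy. The V-ATPase pumps protons across the lysosomal membrane: its V1 sector hydrolyzes ATP in the cytosol and turns a rotor, and its V0 sector carries the protons through the membrane. The acid lumen activates the cathepsins, a name shared by cysteine, aspartic and serine proteases, and the heavily glycosylated LAMPs line the inner face of the membrane. In fibroblasts, lysosomal proteases take part in the breakdown of internalized collagen, and some cathepsins are also secreted.

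The values are log2(value + 1) as deposited, called log2 values here, and all differences are on that scale, on which the added 1 makes differences of weakly expressed genes too small. Genes are compared between libraries and not with each other, because the linear unit is not named. The linear values of a library summed to 690499 to 855404, which are not read counts. All 10 fibroblast markers were listed above 0 in at least 1 library, and their summed linear value was 7976 to 8332 in the first run and 11016 to 14419 in the second. Among them *Postn*, whose locus drives Cre, had 5.87, 5.86 and 6.12 in control replicates 3, 4 and 2. It had 10.22, 10.50 and 10.36 in the Hsp47-deleted libraries. All 3 Hsp47-deleted libraries were above control replicate 2 for 5 of the 10 (46.7% of all genes) and below it for 2 (11.7%). Over the tested genes, control replicate 2 had a Pearson r of 0.872 to 0.936 with the Hsp47-deleted libraries and of 0.827 and 0.761 with control replicates 3 and 4. The targeted gene *Serpinh1*, which encodes Hsp47, had log2 values of 6.28, 6.10 and 7.60 in control replicates 3, 4 and 2, and of 6.87, 6.67 and 6.66 in the libraries labelled Hsp47-deleted. Its difference was 0.072 (standard error, SE, 0.43; limma, Benjamini-Hochberg (BH) adjusted p = 0.947), and -0.87 against control replicate 2 alone. The targeted transcript was therefore not lower over all 3 controls, and Hsp47-deleted is used below as a label. By Western blotting, the paper reports efficient loss of Hsp47 protein from sorted EGFP+ myofibroblasts, which RNA values do not measure.

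Many lysosomal promoters hold an E-box motif called CLEAR, which is bound by TFEB and its relatives. RefSeq promoters (GRCm38.p6, 250 bases before to 50 bases after each start) were found for 34 of the 44 genes, with no entry for *Atp6v0a2*, *Atp6v0d2*, *Atp6v1b2*, *Atp6v1c1*, *Atp6v1g1*, *Atp6v1h*, *Ctsb*, *Ctse*, *Ctsh* and *Ctsw*. Its core is TCACGTGA, and the longer palindrome with a G before and a C after the core was in 0 of the 34, against 0.37% of the 27025 genes with a promoter. The core itself was in 5 of the 34 (14.7%), against 1.12% of all genes, and the shorter CACGTG, which the core contains, was in 9 (26.5%) against 8.09%. Each motif reads the same on both strands. The stretches around the core are printed 5′ to 3′ on the strand of the gene, with the core in capitals, because they show which cathepsin and pump genes share it and where it lies.
*Ctsa*, chr2:164833716-164833802, plus strand: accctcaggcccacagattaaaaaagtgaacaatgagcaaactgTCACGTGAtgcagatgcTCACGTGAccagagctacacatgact
*Ctsd*, chr7:142387875-142387970, minus strand: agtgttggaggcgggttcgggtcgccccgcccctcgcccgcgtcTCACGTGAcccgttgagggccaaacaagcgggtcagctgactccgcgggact
*Atp6v0d1*, chr8:105566035-105566112, minus strand: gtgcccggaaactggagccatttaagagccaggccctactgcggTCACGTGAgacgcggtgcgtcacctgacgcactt
*Atp6v0e*, chr17:26676354-26676425, plus strand: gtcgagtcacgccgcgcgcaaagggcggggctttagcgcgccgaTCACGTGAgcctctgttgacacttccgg
*Atp6v1a*, chr16:44139340-44139435, minus strand: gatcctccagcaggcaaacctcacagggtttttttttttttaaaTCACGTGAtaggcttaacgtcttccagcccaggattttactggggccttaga

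*Ctsa* held 2 cores, centered 9 bases before and 8 bases after the RefSeq start. The core of *Atp6v0d1* lay over the start, that of *Atp6v0e* was centered 6 bases after it, and those of *Ctsd* and *Atp6v1a* were centered 95 and 128 bases before it. In GENCODE release M21 (GRCm38), which gives some of these genes an earlier start, the cores of *Ctsa*, *Ctsd* and *Atp6v0e* fall in an exon of the gene, that of *Atp6v1a* in an intron and that of *Atp6v0d1* outside the gene. Against all 3 controls the 5 genes did not share a pattern of values. *Ctsa*, *Ctsd* and *Atp6v0e* lay above every control in all 3 Hsp47-deleted libraries, whereas *Atp6v0d1* differed by 0.034 and *Atp6v1a* by -0.35. Against control replicate 2 alone, all 3 Hsp47-deleted libraries were higher for each of the 5 (46.7% of all genes). Those differences ran from 0.18 for *Atp6v0d1* to 1.19 for *Atp6v1a*.

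The comparison of the libraries labelled Hsp47-deleted with controls asks whether lysosomal gene expression differs between EGFP+ myofibroblasts of these genotypes. The serine carboxypeptidase gene *Ctsa* had the smallest p among the members, with a mean 1.55 higher, followed by the rodent placental cathepsin *Ctsq*, which was 1.82 lower. The collagen-cleaving *Ctsk*, and *Ctsf*, *Atp6v0a2* and *Atp6v0e*, were 0.92 to 1.69 higher. No member passed a BH-adjusted limma p under 0.05 (0 of 36, against 0.245% of the 15109 genes tested). At an unadjusted p under 0.05, 5 members were higher (*Ctsa*, *Atp6v0a2*, *Ctsf*, *Atp6v0e* and *Ctsk*), where the background over all genes was 14.5%, and 1 was lower (*Ctsq*, background 0.755%). An exact permutation test of 3 libraries against 3 cannot give a two-sided p under 0.10.

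Higher means in the Hsp47-deleted libraries were found for 31 of the 36 genes, against 74.5% of all genes. All 3 of these libraries lay above all 3 controls for 10 members (background 18.3%), namely *Ctsa*, *Ctsd*, *Ctsf*, *Ctsh*, *Ctsk*, *Ctsl*, *Ctso*, *Atp6v0a2*, *Atp6v0e* and *Atp6v1d*, and below them for 1, *Ctsq* (background 1.5%). The median difference of the members was 0.46, and that of all tested genes was 0.35, which left 0.10 between them. Once each library was centered on its median, the members' median was 0.044, 19 of 36 had a higher mean (background 45.7%), and *Ctsa* (background 4.73%) and *Ctsq* (background 3.48%) remained at an unadjusted p under 0.05.

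**Figure D1:**
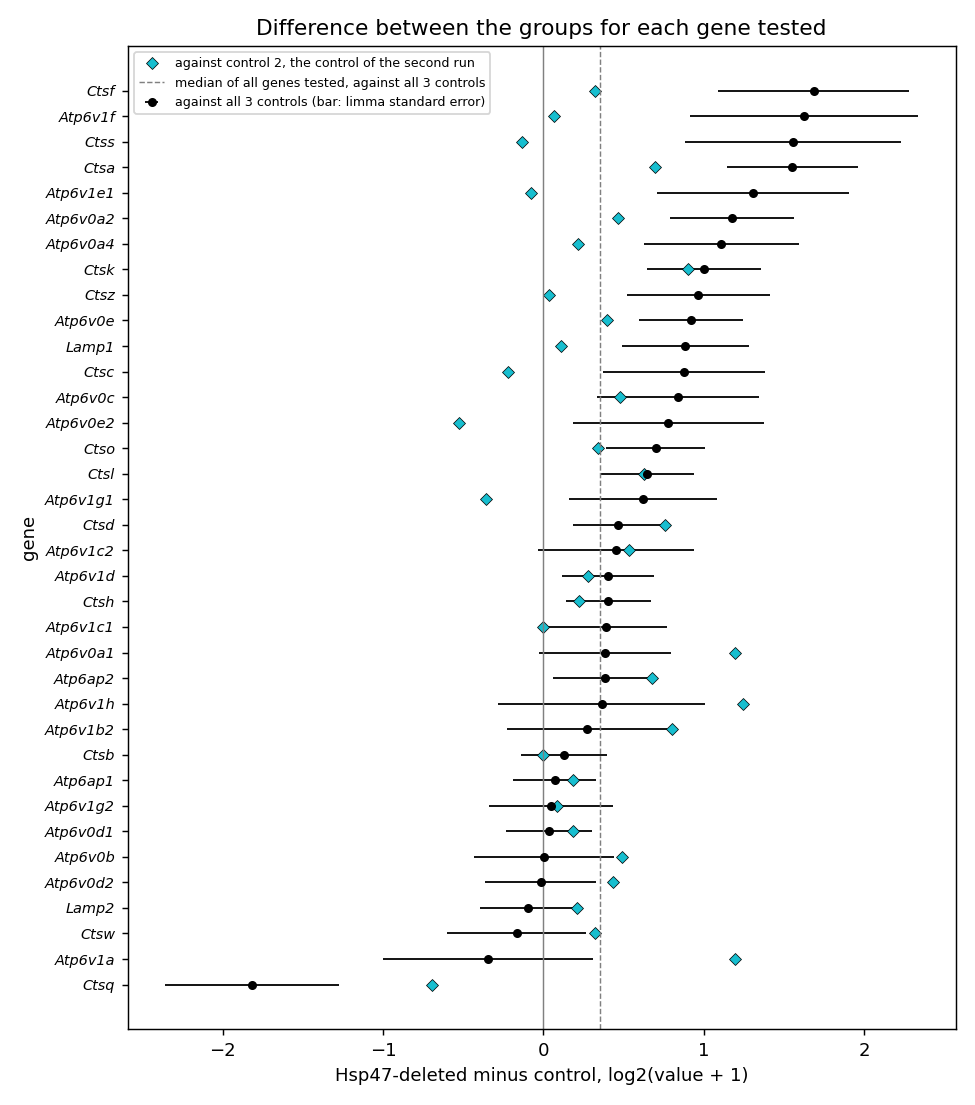
Difference of each of the 36 tested genes between the Hsp47-deleted and the control libraries, in log2(value + 1). Black points are against all 3 controls with the limma standard error, cyan diamonds are against control replicate 2 alone (1 library, no error), and the dashed line is the median of all tested genes (0.35). The diamonds of *Ctsk* and *Ctsl* lie next to their black points, those of *Ctss* and *Atp6v1f* fall near 0, and that of *Atp6v1a* is at 1.19.

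Run and group overlap in this design, and the control of the second run differed from the others for many members. Control replicate 2 lay above both first-run controls for 20 of the 36 (background 46.4%) and below both for 13 (background 36.7%). Against control replicate 2 alone, a comparison without a test because it has 1 control, the members' median difference was 0.30, and 0.011 relative to all genes. All 3 Hsp47-deleted libraries were above it for 20 members (background 46.7%) and below it for 4 (background 11.7%). With run as a covariate, the fit estimates this same difference from control replicate 2 and takes its spread from the other libraries. Its p-values therefore still rest on that 1 control. By this fit 3 members had an unadjusted p under 0.05, all higher (*Atp6v0a1*, *Atp6v1a* and *Ctsd*, background 5.46%) and 0 lower (background 1.27%), and none passed the BH adjustment. Control replicate 2 was the lowest of the 6 libraries for each of these 3. When control replicate 2 was left out, 14 members were called at a BH-adjusted p under 0.05, 13 higher and *Ctsq* lower, but so were 18.3% of all genes, and in that comparison run and group cannot be told apart.

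**Figure D2:**
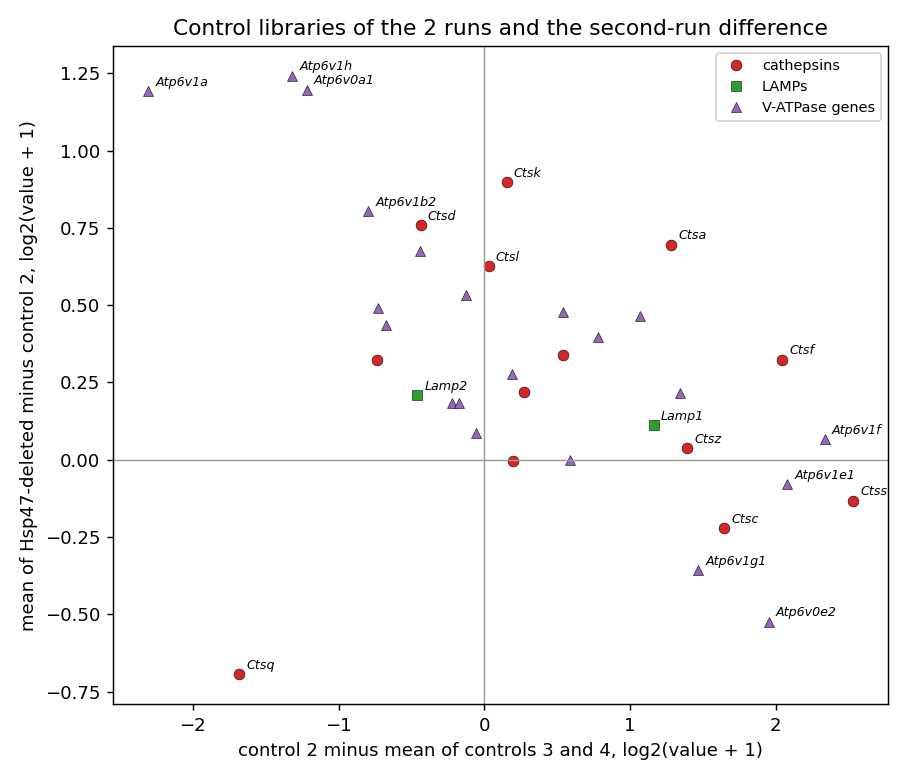
Each point is 1 of the 36 tested genes. The horizontal axis is control replicate 2 minus the mean of control replicates 3 and 4, and the vertical axis is the mean of the Hsp47-deleted libraries minus control replicate 2, both in log2(value + 1). Both axes hold control replicate 2, so a tilt from upper left to lower right is built in. *Ctsk* and *Ctsl* lie near 0 on the horizontal axis, *Ctss* and *Atp6v1f* at the right near 0 on the vertical axis, and *Atp6v1a* at the upper left.

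Among the cathepsins, 13 of 18 were tested and 11 of the 13 had a higher mean in the Hsp47-deleted libraries (74.5% of all genes). Their median difference was 0.70 against all controls and 0.32 against control replicate 2, where the medians of all genes were 0.35 and 0.29. *Ctsa* (chromosome 2, 164832873 to 164841032, plus strand) encodes a carboxypeptidase that also shields lysosomal β-galactosidase and neuraminidase from degradation. Its libraries had log2 values of 5.13, 5.26 and 6.48 in control replicates 3, 4 and 2, against 7.05, 7.43 and 7.04 in the libraries labelled Hsp47-deleted 1, 2 and 3. All Hsp47-deleted libraries were above all controls, and the second-run control lay between the first-run controls and the Hsp47-deleted libraries. The group means were 5.62 ± 0.74 and 7.17 ± 0.22 (SD, n = 3 each), a difference of 1.55 (SE 0.41, limma, BH-adjusted p = 0.252), and the difference from control replicate 2 was 0.69 (limma with run as a covariate, BH-adjusted p = 0.732). *Ctsa* shares exon sequence with *Neurl2* and *Pltp* on the other strand, the libraries do not mark strand, and *Pltp* had a similar order of libraries, with 4.18, 3.68 and 5.20 in controls and 5.47, 5.70 and 5.22 in the Hsp47-deleted libraries, so reads of these genes could not be told apart where they overlap.

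Among the cysteine cathepsins above all controls, *Ctsk* and *Ctsl* had controls that were close in both runs, with control replicate 2 above the mean of the first-run controls by 0.15 and 0.031. *Ctsk*, which encodes the elastin- and collagen-cleaving protease best known from osteoclasts, had log2 values of 5.24, 5.49 and 5.52 in control replicates 3, 4 and 2, and of 5.98, 6.19 and 7.08 in the Hsp47-deleted libraries. The 3 controls spanned less than the gap to the lowest Hsp47-deleted library, and Hsp47-deleted replicate 3 stood highest. The difference was 1.00 (SE 0.35, limma, BH-adjusted p = 0.294), and 0.90 against control replicate 2. Against all controls it was 0.59 once libraries were centered on their medians and 0.66 after quantile normalization. Of 5 osteoclast markers, *Dcstamp* was listed at 0 in every library, and the summed linear value of the list was 4.98 to 11.2 over all 6. Of the 3 tested, 1 was higher at an unadjusted limma p under 0.05 (14.5% of all genes), *Acp5*, which encodes an acid phosphatase. It was listed at 0 in both first-run controls, had a log2 value of 0.97 in control replicate 2 and had 1.42, 1.53 and 1.36 in the Hsp47-deleted libraries. The other tested osteoclast markers, *Ocstamp* and *Tnfrsf11a*, overlapped between the groups, and *Calcr* had a log2 value of at most 0.25 in any library. The part of such cells in the values of *Ctsk* was not tested. *Ctsl*, which encodes a broadly acting endopeptidase, had 8.18, 8.08 and 8.16 in controls and 8.73, 8.52 and 9.10 in the Hsp47-deleted libraries, a difference of 0.65 (SE 0.29, limma, BH-adjusted p = 0.338) and 0.63 against control replicate 2. The groups of *Ctsl* did not overlap either, and its differences with and without the first-run controls were nearly equal, but its difference against all controls was 0.23 once libraries were centered on their medians and 0.028 after quantile normalization.

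*Ctsf* and *Ctso* kept their order but followed the run more closely. *Ctsf*, a cysteine cathepsin, had log2 values of 2.63, 1.80 and 4.26 in control replicates 3, 4 and 2, and of 4.88, 4.59 and 4.28 in the Hsp47-deleted libraries. Control replicate 2 thus came close to Hsp47-deleted replicate 3, and the difference of 1.69 (SE 0.59, limma, BH-adjusted p = 0.294) shrank to 0.32 against that control. *Ctso* had 3.54, 3.30 and 3.96 in controls and 4.34, 4.46 and 4.11 in the Hsp47-deleted libraries, with differences of 0.70 (limma, BH-adjusted p = 0.331) and 0.34. *Ctsb*, one of the most widely expressed cysteine cathepsins, had 6.50, 6.20 and 6.55 in controls and 6.57, 6.63 and 6.43 in the Hsp47-deleted libraries. Its groups overlapped, and the difference was 0.13 (SE 0.27, limma, BH-adjusted p = 0.835).

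The aspartic protease gene *Ctsd* showed the reverse order of controls, with 7.93 and 8.05 in control replicates 3 and 4, 7.55 in control replicate 2, and 8.38, 8.29 and 8.26 in the Hsp47-deleted libraries. The second-run control was the lowest of the 6. Its difference was 0.47 (SE 0.28, limma, BH-adjusted p = 0.439) against all controls and 0.76 against control replicate 2 (limma with run as a covariate, BH-adjusted p = 0.686). *Ctsq* was 1 of 5 tested members with a lower mean in the Hsp47-deleted libraries, beside *Ctsw*, *Lamp2*, *Atp6v0d2* and *Atp6v1a*, whose groups overlapped. It had 2.45, 3.41 and 1.25 in control replicates 3, 4 and 2, against 0.72, 0.47 and 0.48 in the Hsp47-deleted libraries, a difference of -1.82 (SE 0.54, limma, BH-adjusted p = 0.281) and of -0.69 against control replicate 2. The values of *Ctsq* are low, and the other placental genes *Ctsj*, *Ctsm* and *Ctsr* were at 0.

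**Figure D3:**
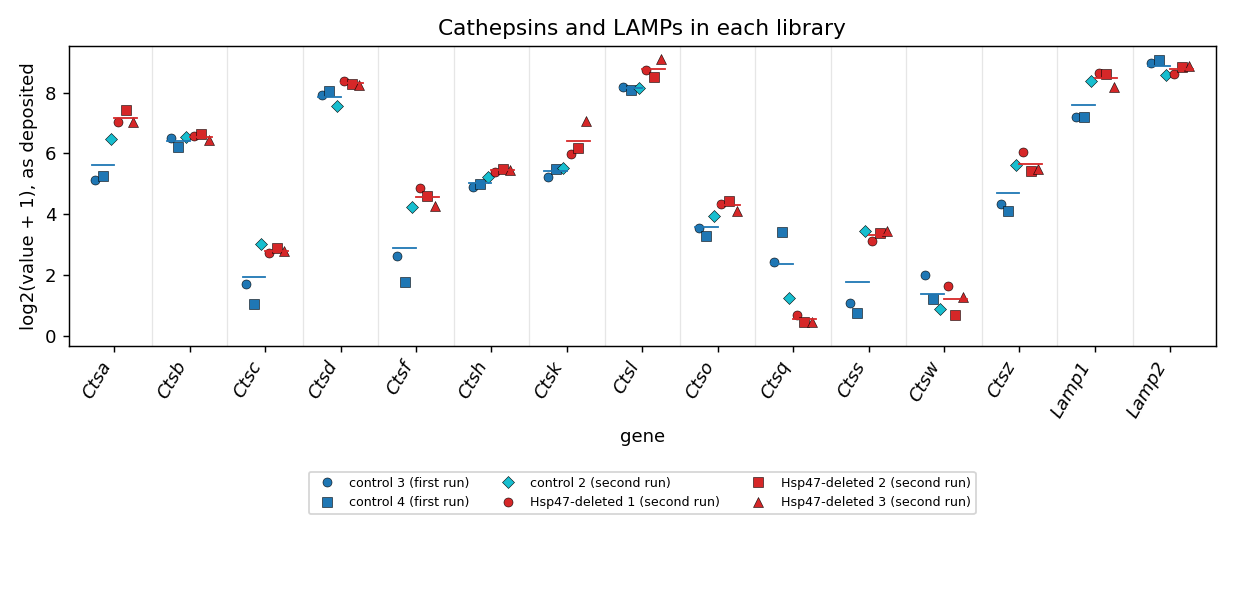
The log2(value + 1) of the 13 tested cathepsins and both LAMPs in each library. Blue circles and squares are the first-run controls, cyan diamonds are control replicate 2, red symbols are the Hsp47-deleted libraries, and horizontal lines are group means. For *Ctsk* and *Ctsl* the 3 controls lie together below the red points, whereas for *Ctss*, *Ctsc*, *Ctsz* and *Lamp1* the diamond lies with the red points.

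*Ctss*, whose protease trims the invariant chain of MHC class II molecules in antigen-presenting cells, separated by run. It had 1.11 and 0.76 in control replicates 3 and 4, 3.47 in control replicate 2, and 3.13, 3.41 and 3.46 in the Hsp47-deleted libraries. The difference was 1.55 (SE 0.67, limma, BH-adjusted p = 0.330) against all controls and -0.13 against control replicate 2. *Ctsc*, which activates serine proteases of leukocytes, and the carboxypeptidase gene *Ctsz* had a similar order, with differences of 0.87 and 0.97 against all controls and of -0.22 and 0.037 against control replicate 2. Most macrophage and leukocyte markers had a similar order. Of 15 markers, 14 were in the table. Their summed linear value was 54.5 and 87.0 in the first-run controls and 215 to 263 in the 4 libraries of the second run. Of the 13 tested, 11 were higher in control replicate 2 than in both first-run controls (46.4% of all genes), whereas *Cd68* and *Itgam* were lower than in both. This step was not particular to leukocyte markers. It was also seen for 10 of 10 fibroblast, 7 of 8 endothelial, 7 of 7 cardiomyocyte, 3 of 6 mural and 1 of 3 osteoclast markers tested. The pan-leukocyte marker *Ptprc* was listed at 0 in all 6 libraries. The part of macrophages and leukocytes in the values of *Ctss* and *Ctsc* was not tested, and in sorted bulk cells a different number of cells of a type and different RNA per cell cannot be told apart.

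**Figure D4:**
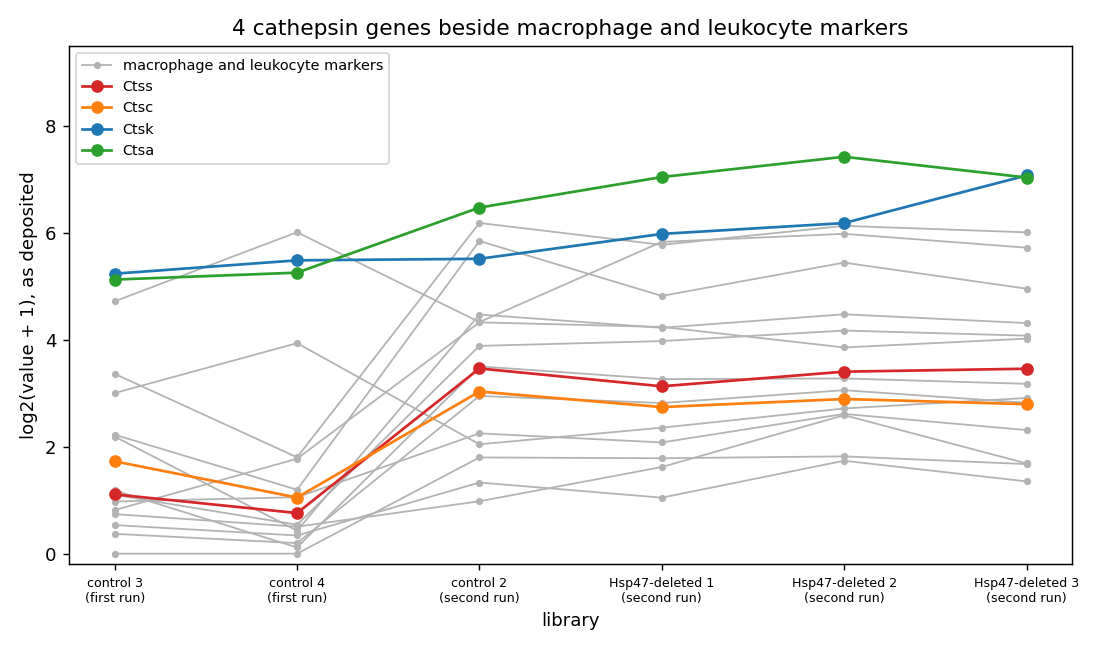
The log2(value + 1) of 4 cathepsin genes (colored) and of the 13 macrophage and leukocyte markers listed above 0 in at least 1 library (grey) in each of the 6 libraries. Lines join the values of a gene and do not stand for an order of the libraries. *Ctss* and *Ctsc* step up between the first-run controls and the 4 libraries of the second run, as 11 of the markers do, whereas *Ctsk* is level over the 3 controls.

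The LAMP genes had differences of opposite sign against all controls and of the same sign against control replicate 2. *Lamp1* had 7.20, 7.21 and 8.37 in control replicates 3, 4 and 2, against 8.64, 8.62 and 8.17 in the Hsp47-deleted libraries, a difference of 0.89 (SE 0.40, limma, BH-adjusted p = 0.335) that was 0.11 against control replicate 2. The second-run control fell among the Hsp47-deleted libraries. *Lamp2*, which in addition has a splice form needed for chaperone-mediated autophagy, had 8.97, 9.07 and 8.56 in controls and 8.61, 8.83 and 8.87 in the Hsp47-deleted libraries. Its 6 values overlapped, with differences of -0.098 (SE 0.30, limma, BH-adjusted p = 0.890) and 0.21, and the table does not separate its splice forms.

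V-ATPase genes numbered 21 after the filter, and 19 of them had a higher mean in the Hsp47-deleted libraries (74.5% of all genes). Their median difference was 0.39 against all controls and 0.40 against control replicate 2, where the medians of all genes were 0.35 and 0.29. Once libraries were centered on their medians, 9 of the 21 had a higher mean (45.7% of all genes). All 3 Hsp47-deleted libraries lay above all controls for 3 of the 21 (18.3% of all genes). In the V0 sector all 9 genes were tested, with medians of 0.78 against all controls and 0.43 against control replicate 2. Among them *Atp6v0a2* and *Atp6v0e* were without overlap. *Atp6v0a2*, an isoform of the large membrane subunit a that works in Golgi and endosomes, had 2.72, 2.60 and 3.73 in control replicates 3, 4 and 2, against 4.33, 4.35 and 3.89 in the Hsp47-deleted libraries, a difference of 1.18 (SE 0.39, limma, BH-adjusted p = 0.283) and of 0.46 against control replicate 2. *Atp6v0e*, a small membrane subunit, had 5.27, 5.09 and 5.96 in controls and 6.45, 6.47 and 6.16 in the Hsp47-deleted libraries, with differences of 0.92 (SE 0.32, limma, BH-adjusted p = 0.294) and 0.40. For both genes the second-run control was the highest control and Hsp47-deleted replicate 3 was the lowest of its group.

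The isoforms of subunit a differed in their order of libraries. *Atp6v0a4*, the isoform of acid-secreting kidney cells, had 4.37, 3.93 and 5.49 in control replicates 3, 4 and 2, against 6.002, 6.08 and 5.04 in the Hsp47-deleted libraries, with differences of 1.11 (limma, BH-adjusted p = 0.330) and 0.21. *Atp6v0a1* had 5.86, 5.57 and 4.49 in controls and 5.74, 5.97 and 5.36 in the Hsp47-deleted libraries. The second-run control was low for *Atp6v0a1*, so its difference was 0.38 against all controls (limma, BH-adjusted p = 0.661) and 1.20 against control replicate 2 (limma with run as a covariate, BH-adjusted p = 0.606). *Atp6v0b*, a subunit of the proton-carrying ring, had 6.18, 6.81 and 5.77 in controls and 5.98, 5.77 and 7.02 in the Hsp47-deleted libraries, a difference of 0.0032 with overlapping groups. *Atp6v0d2*, the isoform of subunit d known from osteoclasts, had 1.30, 1.25 and 0.60 in controls and 1.02, 1.13 and 0.95 in the Hsp47-deleted libraries, with a difference of -0.017 (limma, BH-adjusted p = 0.986). *Atp6v0c*, another ring subunit, has near-identical pseudogene copies, and its value is uncertain for that reason.

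Within the V1 sector 10 of 13 genes were tested, and the median difference was 0.40 against all controls and 0.18 against control replicate 2, which was -0.11 relative to all genes. *Atp6v1a*, the ATP-hydrolyzing subunit, had 8.38, 9.19 and 6.48 in control replicates 3, 4 and 2, against 7.24, 7.77 and 8.001 in the Hsp47-deleted libraries. The first-run controls were the highest of the 6 and the second-run control was the lowest. The difference was accordingly -0.35 (SE 0.65, limma, BH-adjusted p = 0.812) against all controls and 1.19 against control replicate 2 (limma with run as a covariate, BH-adjusted p = 0.679). *Atp6v1b2*, its partner in the catalytic ring, had 5.15, 5.30 and 4.43 in controls and 4.51, 4.91 and 6.28 in the Hsp47-deleted libraries, with differences of 0.27 (limma, BH-adjusted p = 0.807) and 0.80.

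The rotor subunit gene *Atp6v1f* had the opposite order of controls, with 2.50 and 3.70 in control replicates 3 and 4, 5.44 in control replicate 2 and 5.09, 5.20 and 6.22 in the Hsp47-deleted libraries. Its difference was 1.62 (SE 0.71, limma, BH-adjusted p = 0.331) against all controls and 0.065 against control replicate 2, and its transcript has 1 near-identical copy. The stalk genes *Atp6v1e1* and *Atp6v1g1* were likewise 1.31 and 0.62 higher against all controls, but -0.078 and -0.36 against control replicate 2. Subunits of the same enzyme thus differed in opposite directions between the controls: *Atp6v1a* was 2.31 lower, and *Atp6v1f* 2.34 higher, in control replicate 2 than in the mean of the first-run controls. The accessory gene *Atp6ap1*, whose product assists pump assembly, was nearly level, with 7.07, 7.02 and 6.87 in controls and 7.04, 7.06 and 7.07 in the Hsp47-deleted libraries (difference 0.069, SE 0.26, limma, BH-adjusted p = 0.912). *Atp6ap2*, also known as the prorenin receptor, had 4.81, 4.85 and 4.39 in controls and 4.59, 5.26 and 5.35 in the Hsp47-deleted libraries, with differences of 0.38 (limma, BH-adjusted p = 0.573) and 0.68.

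Hsp47-deleted replicate 3 often gave the highest value of a pump gene. It was the highest of the 6 libraries for 10 of the 21 V-ATPase genes (47.6%), for 2 of the 13 cathepsins (15.4%) and for 23.5% of all genes. Its median excess over the mean of the other Hsp47-deleted libraries was 0.43 for the V-ATPase genes, -0.072 for the cathepsins and -0.076 for all genes. *Atp6v1b2*, *Atp6v1f* and *Atp6v0b* above are examples, whereas *Atp6v0a2*, *Atp6v0a4* and *Atp6v0e* were lowest in this library within its group.

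**Figure D5:**
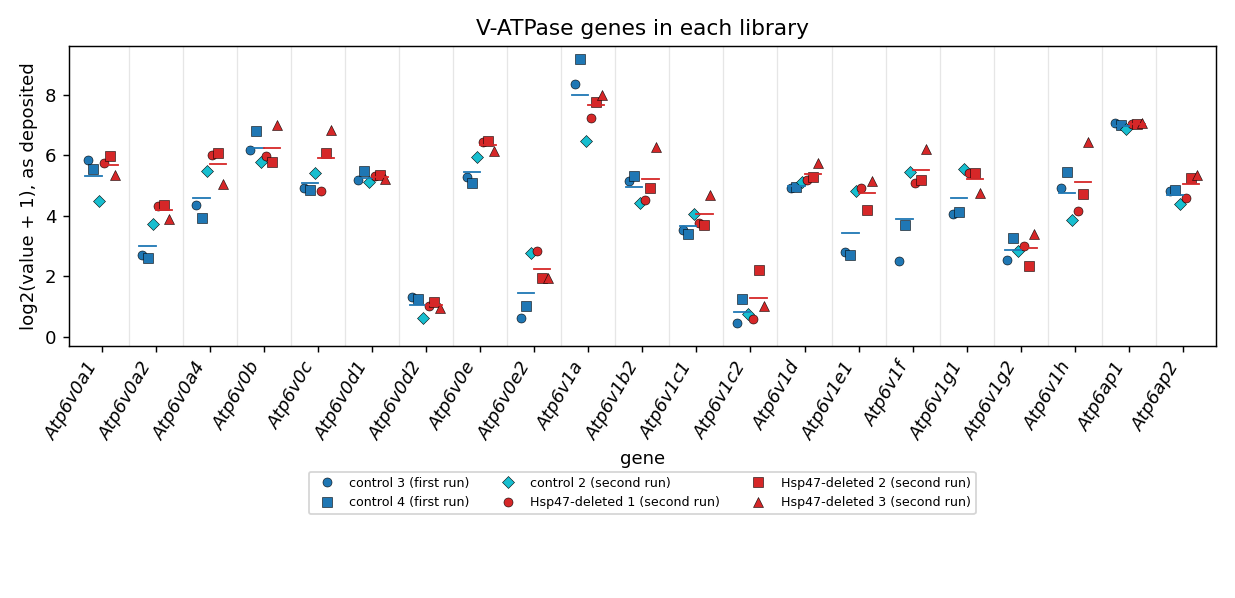
The log2(value + 1) of the 21 tested V-ATPase genes in each library, ordered as V0 sector, V1 sector and accessory genes. Symbols are those of the plot of cathepsins: blue circles and squares for the first-run controls, cyan diamonds for control replicate 2, red symbols for the Hsp47-deleted libraries and horizontal lines for group means. The diamond of *Atp6v1a* is far below the blue points and that of *Atp6v1f* far above them, and red triangles (Hsp47-deleted replicate 3) are the highest symbol for 10 of the 21 genes.

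Other genes of the lysosomal system were described by lists, and no gene on any of them passed the BH adjustment. Over all genes 74.5% had a higher mean and 14.5% were higher at an unadjusted limma p under 0.05. The median difference of all genes was 0.35 against all controls and 0.29 against control replicate 2. Of 38 lysosomal hydrolases and activators, 35 had a higher mean and 9 were higher at that threshold. Their median difference was 0.59 against all controls and 0.10 against control replicate 2, which was 0.23 and -0.19 relative to all genes. The smallest p-values belonged to *Man2b1*, a mannosidase (difference 1.05, SE 0.33, limma, BH-adjusted p = 0.282), and *Acp2*, an acid phosphatase (difference 1.37, SE 0.45, limma, BH-adjusted p = 0.283). Among 16 other lysosomal membrane proteins and channels, 14 had a higher mean and 1 was higher at an unadjusted p under 0.05, the tetraspanin gene *Cd63* (difference 1.502, and 0.36 against control replicate 2). The calcium channel gene *Mcoln1* was next (0.93 and -0.015). The medians of the list were 0.33 and -0.013, or -0.022 and -0.30 relative to all genes. For 7 further V-ATPase partners the count was 1, *Tldc2* (1.52, and 1.26 against control replicate 2), followed by the assembly factor gene *Ccdc115* (0.73 and 0.097). The medians of these partners were 0.51 and 0.097, or 0.15 and -0.19 relative to all genes.

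Enzymes reach the lysosome through mannose 6-phosphate tags and their receptors. Of 9 sorting genes, 8 had a higher mean and 2 were higher at an unadjusted p under 0.05 (74.5% and 14.5% of all genes), with medians of 0.54 against all controls and 0.20 against control replicate 2. Relative to all genes these medians were 0.19 and -0.092. *Igf2r*, the large mannose 6-phosphate receptor, had 5.59, 5.56 and 6.66 in control replicates 3, 4 and 2, against 8.68, 8.28 and 7.43 in the Hsp47-deleted libraries. All 3 Hsp47-deleted libraries were above all controls, with a difference of 2.19 (SE 0.45, limma, BH-adjusted p = 0.148) and of 1.46 against control replicate 2. *Gnptg*, a subunit of the enzyme that starts the tag, was 1.26 higher (SE 0.34, limma, BH-adjusted p = 0.264) and 0.71 higher against control replicate 2.

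Cystatins inhibit cysteine cathepsins, and 4 of the 6 in the table were tested. All 4 had a higher mean and 1 an unadjusted p under 0.05 (74.5% and 14.5% of all genes), with medians of 0.88 against all controls and 0.83 against control replicate 2. Relative to all genes these medians were 0.53 and 0.54. *Cst3*, the secreted cystatin C, had 9.82, 9.64 and 10.77 in control replicates 3, 4 and 2, against 11.70, 11.94 and 11.80 in the Hsp47-deleted libraries. Its groups did not overlap, and its difference was 1.74 (SE 0.39, limma, BH-adjusted p = 0.192) against all controls and 1.05 against control replicate 2 (limma with run as a covariate, BH-adjusted p = 0.401). *Cst6* was 1.07 higher against all controls and 0.073 higher against control replicate 2.

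TFEB and the related MiT/TFE factors are the transcription factors that bind the CLEAR core printed above. Of 4 genes 3 were tested, all with a higher mean (74.5% of all genes), and *Tfeb* had an unadjusted p under 0.05 (14.5% of all genes). *Tfeb* had 2.21, 2.25 and 3.22 in controls and 3.85, 3.76 and 3.53 in the Hsp47-deleted libraries (difference 1.15, SE 0.37, limma, BH-adjusted p = 0.283, and 0.50 against control replicate 2), and *Mitf* differed by 0.73 and 0.43. The third, *Tfe3*, differed by 0.14 with overlapping groups, and by 0.99 against control replicate 2. For the Ragulator and Rag GTPases, which tether nutrient signaling to the lysosome, 7 of 8 tested genes had a higher mean and 2 were higher at an unadjusted p under 0.05, against the same 74.5% and 14.5%, with medians of 0.71 and -0.076. Relative to all genes these medians were 0.35 and -0.36. *Lamtor3* differed by 1.14 and 0.96, and *Lamtor2* by 2.61 and -0.12, in the order all controls and control replicate 2. Among 16 autophagy genes, 14 had a higher mean and 5 were higher at an unadjusted p under 0.05, again against 74.5% and 14.5%, with medians of 0.61 and 0.46. Relative to all genes these medians were 0.26 and 0.17. The kinase gene *Ulk1* (1.12 and 0.83) and *Gabarapl1*, an LC3 relative (1.20 and 1.04), had the smallest p-values.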

How the data were processed

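RNA of sorted EGFP+ cells was amplified before library construction with a kit that does not mark strand. The deposited table gives log2(value + 1), as computed by the authors, in a column for each library and a row for each of 28987 genes, and these values were used unaltered. The submitters' processing notes name kallisto and mm10, and the paper names AltAnalyze; versions and the linear unit are not given in the sources used here, so the depth per library is unknown. The deposited group means and the authors' own comparison (folds and p-values) were not used.

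After 13878 genes whose linear values averaged under 1 were dropped, 15109 remained. The test was limma 3.58.1 (R 4.3.3; lmFit, then eBayes with a mean-variance trend) without covariates, with BH adjustment over all 15109 genes. The fit was also run on simulated data that held no run effect, so that check does not bear on the overlap of run and group. Alternatives were run as a covariate, the second run alone, a block for replicate number, no filter, a linear mean of 5 as the filter, a pseudocount of 0.1 or 5, quantile normalization, centering on the median (also with run as a covariate), no trend, robust estimation (statmod 1.5.0) and leaving out each library.

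The members, gene lists and tests were chosen with earlier results of these data known. Values in every library are given for members with a BH-adjusted p under 0.05 (none), the 12 with the smallest p, the highest mean of each role list, *Ctsb*, *Ctsd*, *Ctsk*, *Ctsl*, *Ctss*, *Lamp1*, *Lamp2*, *Atp6v0d2*, *Atp6v1b2* and *Atp6ap2*, and from each other list the 2 genes with the smallest p are named. Any other gene was named with its values in view. Positions are from GENCODE release M21 (GRCm38). With minimap2 2.31-r1302, 3 members had a near-identical copy (95% identity over 50% of a transcript), of which *Ctsa* matched the overlapping *Neurl2*, and 16 had an exon that overlaps another gene, so their reads may be shared. Lists of endothelial, cardiomyocyte and mural markers had summed linear values of 77.7 to 138, 43.3 to 97.3 and 163 to 288 in the first-run controls and of 153 to 248, 176 to 277 and 111 to 215 in the second run.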

Additional observations from a re-analysis of the deposited data

How the results depend on the processing

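No member was called at a BH-adjusted p under 0.05 under any alternative except leaving out control replicate 2 (0 to 14 members over the 6 libraries left out in turn). The number of genes called over the whole table was 37, and it was 16 with a pseudocount of 0.1, 17 with quantile normalization, 18 with centering on the median and 8 to 2768 when a library was left out. It was 50 with run as a covariate and 48 with centering and run together, fits that rest on control replicate 2. Members at an unadjusted p under 0.05 numbered 6. They numbered 3 with run as a covariate, 2 with quantile normalization, 2 with centering, 1 with centering and run together, and 2 to 18 when a library was left out (2 without control replicate 3, 3 without control replicate 4 or Hsp47-deleted replicate 2, 18 without control replicate 2). The members' median difference of 0.46 became 0.30 with run as a covariate or in the second run alone, 0.054 with quantile normalization, 0.044 with centering, 0.054 with centering and run together, and 0.45 to 0.63 over the libraries left out. Relative to all genes it was 0.10, against 0.011 with run as a covariate, in the second run alone and with centering and run together, 0.32 without a filter and 0.13 to 0.25 over the libraries left out. The cause of these shifts was not tested.

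Signs of the following differences were reversed. With run as a covariate and in the second run alone, *Atp6v0d2* was at 0.43, *Ctss* at -0.13, *Lamp2* at 0.21, *Ctsb* at -0.0054 and *Atp6v1a* at 1.19. With centering, *Atp6ap2* was at -0.032, *Atp6v0b* at -0.41, *Atp6ap1* at -0.35, *Ctsb* at -0.29 and *Atp6v1b2* at -0.14. With quantile normalization, *Atp6v0b* was at -0.35, *Atp6ap1* at -0.33, *Ctsb* at -0.23, *Atp6v1b2* at -0.083 and *Ctsd* at -0.13. With centering and run together, *Atp6v0d2* was at 0.19, *Atp6v1f* at -0.18, *Ctss* at -0.38, *Lamp1* at -0.13, *Atp6ap1* at -0.061, *Ctsb* at -0.25, *Atp6v0a4* at -0.031 and *Atp6v1a* at 0.95. A pseudocount of 0.1 put *Atp6v0d2* at 0.026. Over the libraries left out in turn, *Atp6v0d2* ranged from -0.24 to 0.11, *Atp6v0b* from -0.38 to 0.28, *Atp6v1b2* from -0.25 to 0.63, *Lamp2* from -0.25 to 0.0049 and *Atp6v1a* from -1.11 to 0.24. Under these alternatives the differences of *Ctsa*, *Ctsf*, *Ctsk*, *Ctsl*, *Ctso*, *Ctsq*, *Atp6v0a2* and *Atp6v0e* kept their sign. That of *Ctsl*, 0.65 against all controls, was only 0.23 with centering and 0.028 with quantile normalization. With centering and run together, *Ctsf*, *Ctso*, *Atp6v0a2* and *Atp6v0e* were at 0.078, 0.095, 0.22 and 0.15.

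Replicate numbers 2 and 3 occur in both groups, and the deviations of same-numbered libraries had correlations of 0.156 and 0.228, but control replicate 2 correlated best with Hsp47-deleted replicate 1 (0.382), so the numbers were not taken as pairs. With the replicate block, 0 genes were called over the whole table, 5 members had an unadjusted p under 0.05, and *Atp6v0d2*, *Lamp2* and *Atp6v1a* changed sign to 0.093, 0.086 and 0.46. The number of libraries limits the precision, and the depth behind each value is unknown.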
